A study of Homo sapiens with 14 samples.

Results

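The prime editor PE3 and the Cas9 nuclease were compared by the base changes called in RNA. All libraries labelled with either treatment were taken, 5 of the 14 in the series: PE3 replicates 2 and 3, and Cas9 replicates 1, 2 and 3. Each library is total RNA of 293FT, a line of human embryonic kidney origin expressing the large T antigen of SV40, and every title in the series contains hRNF2, taken to mean that RNF2 was targeted. Cells of both groups were sorted for the brightest 15% by fluorescence at 40 h after transfection, RNA was depleted of ribosomal and globin transcripts, and strand-specific libraries were sequenced from both ends for 150 bases. The other 9 libraries, labelled hA3A-BE3 (a cytosine base editor), EGFP and non-transfection, serve here only as ranges. Whether replicates are separate cultures is not in the labels, and p-values therefore reflect the spread between libraries alone. With 2 libraries against 3 there are 10 assignments, and the two-sided exact permutation test used below cannot go under p = 0.2. Blood cell marker genes (8) and fibroblast marker genes (6) had 0 called sites in the 5 libraries. Called sites were rare in any gene, with 1 or more in 6.65% of protein-coding genes, so this is no check of cell identity. The lists hold called sites and not expression levels, and cell identity was not checked.

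PE3 joins a Cas9 that nicks 1 strand of DNA to a reverse transcriptase, which copies a new sequence from an extended guide RNA into the genome. A second guide directs a nick to the other strand. Cas9 nuclease cuts both strands and carries no enzyme that writes or deaminates bases. In human cells most base changes seen in RNA are A-to-I, made by ADAR enzymes, which deaminate adenosine in double-stranded RNA and act mainly on inverted repeats in 3' UTRs and introns. Inosine is read as G. C-to-U changes in RNA are made by cytidine deaminases of the APOBEC family, the source of the deaminase in the base editor hA3A-BE3.

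Among the changes other than A-to-I, a single site was called in both PE3 libraries and in no other library of the series, and it lay in the targeted gene. RNF2 (ENSG00000121481), a ubiquitin ligase of Polycomb repressive complex 1, had a G-to-A change on the plus strand at position 185087640 of chromosome 1 (GRCh38), the last base of its exon 2 (185087552 to 185087640). The change is synonymous (Q29Q in the longest coding transcript). Its surrounding transcript sequence, from GENCODE release 29, is shown because it is the changed sequence itself, with the changed base in capitals.
RNF2 site: gaacaccucaGgaggcaauaa
In PE3 replicate 2, 9 of 9 covering reads carried the change (100%, exact Clopper-Pearson 95% interval 66.4 to 100). In PE3 replicate 3, 8 of 13 covering reads carried it (61.5%, interval 31.6 to 86.1). No other of the 14 libraries had it in its list. These intervals cover counting error only, since PCR reads carry no molecular identifiers here. The labels used here do not state the designed edit, and RNA reads alone do not show whether the change lies in DNA.

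Called sites numbered 1102 in PE3 replicate 2, 2384 in PE3 replicate 3, and 1679, 1547 and 3300 in Cas9 replicates 1, 2 and 3. The mapped bases behind them differed: 3.26 and 7.60 Gb for PE3 against 7.37, 5.44 and 10.6 Gb for Cas9. The median number of covering reads at a called site was 11 and 26 in the PE3 libraries and 26, 19 and 33 in the Cas9 libraries. PE3 replicate 2 was the shallowest of all, and 23.9% of its sites had at least 20 covering reads, against 47.6% to 98.0% in the other 4. The lists start at 2 mutated reads and an edited fraction just above 5%, so a site missing from a list was not necessarily unedited. Read depth also had a floor per Gb of mapped bases. The lowest values were 3.07 and 3.03 reads per Gb in PE3 and 3.12, 3.12 and 3.01 in Cas9. The lowest depth in a list therefore rose with the mapped bases of the library, which also bears on the share of sites with at least 20 covering reads.

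Per Gb of mapped bases, PE3 gave 338 and 314 sites and Cas9 gave 228, 284 and 310. Both PE3 values lay above all 3 Cas9 values. The means were 326 ± 17.5 (SD, n = 2) and 274 ± 42.1 (SD, n = 3), a 1.20-fold difference (log2 0.26, exact permutation p = 0.2). The order depends on scaling: in numbers as listed PE3 was lower (log2 -0.34). When every library was thinned to the mapped bases of PE3 replicate 2, the expected numbers were 1102 and 1275 for PE3 and 906, 1036 and 1500 for Cas9 (log2 0.08), and the groups overlapped.

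A-to-I made up most of every list, with 867 and 2136 sites in PE3 and 1440, 1276 and 2925 in Cas9. Scaled, these were 266 and 281 sites per Gb against 195, 235 and 275. PE3 replicate 3 lay just above the Cas9 range and PE3 replicate 2 within it. The means were 274 ± 10.5 (SD, n = 2) and 235 ± 39.8 (SD, n = 3), a log2 difference of 0.23 (exact permutation p = 0.4, adjusted p = 0.96 over the 12 changes). At matched mapped bases the expected numbers were 867 and 1144 against 768, 842 and 1336, with a log2 difference of 0.06. The EGFP and non-transfection libraries had 272 to 376 A-to-I sites per Gb.

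C-to-U sites numbered 43 and 44 in PE3 and 44, 45 and 53 in Cas9. These numbers were alike across libraries of unequal depth, so dividing by mapped bases set the shallowest library highest: 13.2 and 5.79 sites per Gb in PE3 against 5.97, 8.27 and 4.98 in Cas9. The log2 difference per Gb was 0.48 (exact permutation p = 0.6) and rested on PE3 replicate 2: without it, the difference was -0.11. Expected numbers at matched mapped bases were 43 and 26.2 in PE3 against 28.6, 33.3 and 29.9 in Cas9, so the 2 PE3 libraries lay on either side of all Cas9 libraries. A U before the edited C, the base that the APOBEC3A deaminase prefers, stood at 28.1% and 17.1% of exonic C-to-U sites in PE3 and at 20%, 18.2% and 19.4% in Cas9. The same share was 95.2% to 96.2% in the hA3A-BE3 libraries.

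**Figure D1:**
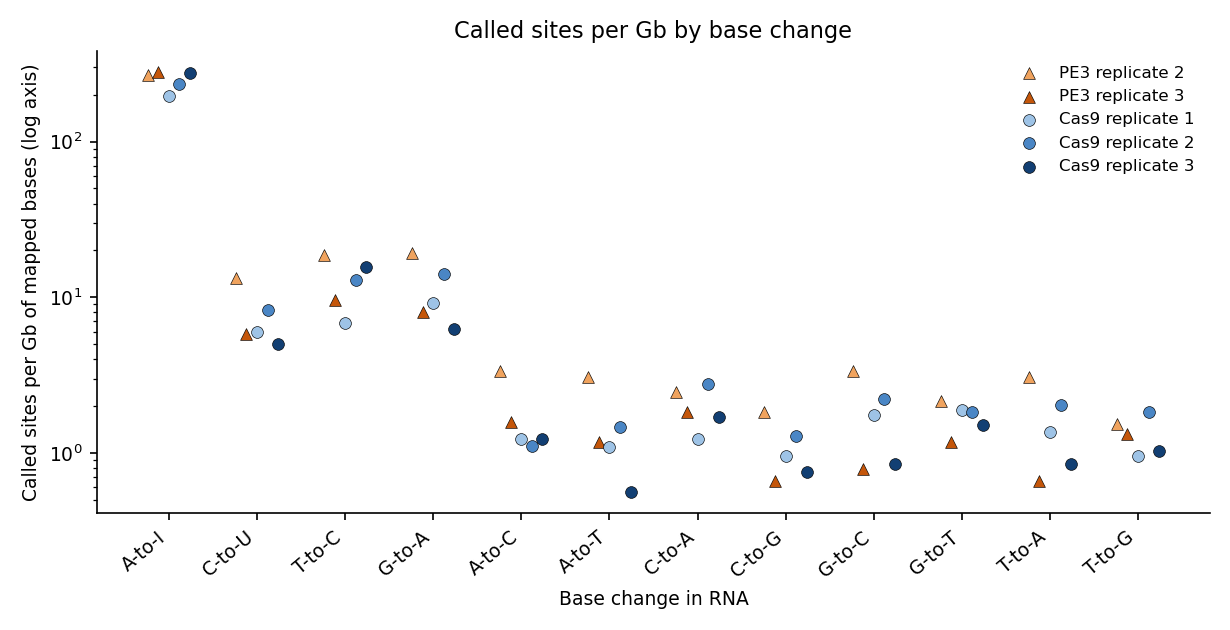
Sites per Gb of mapped bases (log axis) for each of the 12 base changes, with 1 point per PE3 or Cas9 library. A-to-I stands far above the other changes in all 5 libraries (195 to 281 sites per Gb), and the shallow PE3 replicate 2 is the highest library for 9 of the 11 other changes.

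G-to-A sites, which a C-to-U change on the other strand would also give, numbered 63 and 61 in PE3 and 68, 77 and 66 in Cas9. T-to-C sites, the opposite-strand counterpart of A-to-I, numbered 61 and 73 in PE3 and 50, 70 and 166 in Cas9. Cas9 replicate 3 stood apart through its introns, with 109 intronic T-to-C sites against 21 to 35 in the other 4 libraries. Of these, 14 were in REEP5, 13 in INTS11 and 13 in ZNF814, genes with 0 such sites in either PE3 library. In the same order these genes had 0, 3 and 0 in Cas9 replicate 1 and 4, 5 and 1 in Cas9 replicate 2. The next genes of Cas9 replicate 3, MCM8-AS1 (9 sites) and SERHL2 (8 sites), had sites in PE3 too (3 and 5, and 5 and 1). The authors' method of assigning strands was not found in the labels or files.

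The 8 transversions, changes between a purine and a pyrimidine, are not made by RNA deaminases. Together they gave 68 and 70 sites in PE3 and 77, 79 and 90 in Cas9. Per Gb the values were 20.9 and 9.21 against 10.4, 14.5 and 8.46, and the groups overlapped (log2 0.35, exact permutation p = 0.6). Among single changes, A-to-C had both PE3 values above every Cas9 value per Gb (3.38 and 1.58 against 1.22, 1.10 and 1.22, log2 0.93, exact permutation p = 0.2). This rested on 11 and 12 sites against 9, 6 and 13, which overlap as listed. G-to-T had the lowest difference, at 2.15 and 1.18 per Gb in PE3 and 1.90, 1.84 and 1.5 in Cas9 (log2 -0.06). At matched mapped bases both PE3 values of G-to-T lay below all Cas9 values (7 and 5.35 expected sites against 7.71, 7.28 and 7.92, exact permutation p = 0.2). No single change had an adjusted p under 0.96 per Gb.

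The 11 changes other than A-to-I together gave 235 and 248 sites in PE3 and 239, 271 and 375 in Cas9. They were 72.2 and 32.6 per Gb against 32.4, 49.8 and 35.3. At matched mapped bases they were 235 and 131 against 139, 194 and 165. The PE3 libraries again held the highest and the lowest value. EGFP and non-transfection libraries had 250 to 283 such sites, or 37.3 to 41.3 per Gb. A-to-I made up 78.7% and 89.6% of the PE3 lists and 85.8%, 82.5% and 88.6% of the Cas9 lists, a difference of -1.49 percentage points (exact permutation p = 1).

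Where the A-to-I sites lay depended on which sites were counted. Sites in 3' UTRs made up 48.9% and 59.1% of A-to-I sites in PE3 and 67.3%, 61.4% and 62.4% in Cas9. Both PE3 values were below all Cas9 values (-9.72 percentage points, exact permutation p = 0.2, adjusted p = 0.8 over 12 region tests). Introns held 36.3% and 27.1% in PE3 and 17.2%, 23.1% and 23.4% in Cas9, with both PE3 values above (10.5 points, exact permutation p = 0.2). The EGFP and non-transfection libraries had 54.5% to 60.2% in 3' UTRs and 26.8% to 31.1% in introns. Every Cas9 library lay above this 3' UTR range and below this intron range. PE3 replicate 3 lay within both ranges, and PE3 replicate 2 lay below the first and above the second. Among sites with at least 20 covering reads the 3' UTR shares were 66.0% and 62.8% in PE3 against 67.7%, 67.4% and 62.9% in Cas9 (-1.61 points). The intron shares were then 6.25% and 21.7% against 15.0%, 12.6% and 23.0% (-2.88 points), so the sign of the intron difference turned. This minimum of reads did not match the libraries, as it kept 23.9% of all called sites in PE3 replicate 2 and 98.0% in Cas9 replicate 3. Thinning all libraries to equal mapped bases left both differences over all sites as they were (-9.81 and 10.5 points), with the groups still apart.

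Coding sequence held 2.42% and 1.5% of A-to-I sites in PE3 and 1.74%, 1.80% and 1.16% in Cas9. For the other 11 changes the coding share was 56.2% and 40.3% in PE3 and 43.1%, 43.2% and 28.3% in Cas9, with the groups overlapping. Cas9 replicate 3 had 40.0% of these changes in introns against 19.2% to 25.5% in the other 4 libraries. Outside genes the share of these changes was lower in both PE3 libraries (1.28% and 2.02%) than in Cas9 (2.93%, 5.54% and 4%), on 3 and 5 sites against 7, 15 and 15 (exact permutation p = 0.2).

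**Figure D2:**
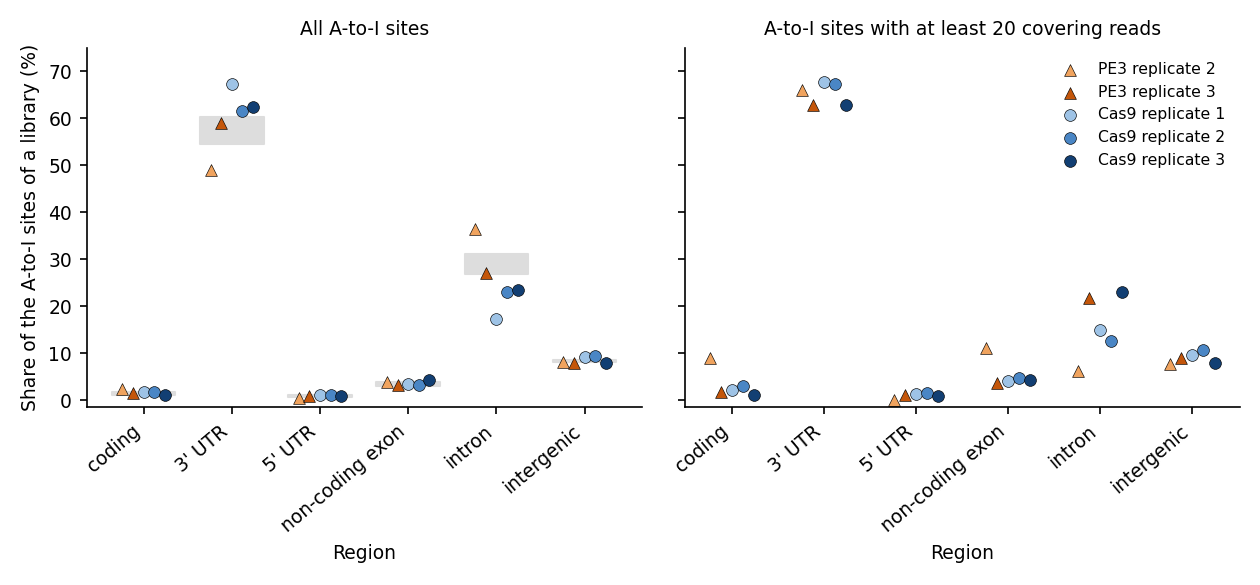
Share of A-to-I sites (percent) by region for each PE3 and Cas9 library, over all sites and over sites with at least 20 covering reads. Over all sites both PE3 libraries lie under Cas9 for 3' UTRs and above Cas9 for introns. Neither separation is present at 20 or more reads, a cut that does not match the libraries. It keeps 23.9% of all called sites in PE3 replicate 2 and 98.0% in Cas9 replicate 3. Both separations remain when all libraries are thinned to equal mapped bases (not drawn).

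The sequence and spacing of A-to-I sites differed little. ADAR disfavours a G before the edited A, and a G stood there at 6.22% and 5.92% of exonic sites in PE3 and 5.47%, 5.69% and 5.53% in Cas9, slightly higher in both PE3 libraries (exact permutation p = 0.2). Of the 8 shares of a base before or after the A, a C before (32.2% and 31.9% against 31.3%, 31.8% and 31.2%) and a C after (21.0% and 21.2% against 22.9%, 21.8% and 21.5%) separated the groups as well, at the same p by this exact test. A G after the edited A, which ADAR tolerates well, stood at 43.0% and 45.9% in PE3 and 43.8%, 45.3% and 45.2% in Cas9. A-to-I sites come in clusters, and 62.8% and 77.1% in PE3 had another site of the same list within 50 bases, against 75.2%, 69.8% and 78.6% in Cas9. The 2 libraries with the fewest mapped bases had the lowest shares.

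Most sites were called in a single library. Of the distinct A-to-I sites, 62.4% were called in 1 of the 5 libraries and 4.12% in all 5. For the other changes these were 85.6% and 2.07%. Of the A-to-I list of PE3 replicate 2, 45.3% was found again in PE3 replicate 3 and 42.7%, 34.0% and 47.3% in Cas9 replicates 1, 2 and 3. Its sites recurred in its fellow PE3 library about as often as in 2 of the 3 Cas9 libraries.

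The edited fraction, the share of covering reads that carry the change, was compared at A-to-I sites called in all 5 libraries. There were 209 such sites in 76 genes, and 56 of them, in 26 genes, had at least 20 covering reads in each library. At these 56 sites the mean edited fraction was 23.5% and 23.9% in PE3 and 19.9%, 20.3% and 21.2% in Cas9. Both PE3 libraries lay above all Cas9 libraries, and the 2 PE3 values were close together in spite of their depths. The means were 23.7% ± 0.24 (SD, n = 2) and 20.5% ± 0.66 (SD, n = 3), a difference of 3.23 percentage points (exact permutation p = 0.2, the smallest this design allows). No 95% interval of this difference can be drawn from permutations of 2 against 3.

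Shared sites were then split by the lowest number of covering reads among the 5 libraries. The other libraries were not held to that number, and an effect of depth was not tested by this split. Where the lowest coverage among the 5 libraries was 3 to 9 reads (61 sites), PE3 gave 48.0% and 38.9% and Cas9 34.8%, 40.6% and 38.7%, and the groups overlapped. At 10 to 19 reads (92 sites) the values were 37.5% and 34.8% against 30.6%, 34.7% and 33.3%. At 20 to 49 reads (45 sites) they were 23.2% and 23.8% against 20%, 20.2% and 21.1%, and at 50 or more (11 sites) 24.8% and 24.1% against 19.3%, 20.9% and 21.6%. PE3 replicate 2 was the highest library in the shallow strata and level with PE3 replicate 3 in the deep ones. When the reads at all 209 sites were thinned to the lowest coverage, the expected levels were 37.0% and 36.3% against 32.9%, 35.1% and 35.4% (2.17 points).

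**Figure D3:**
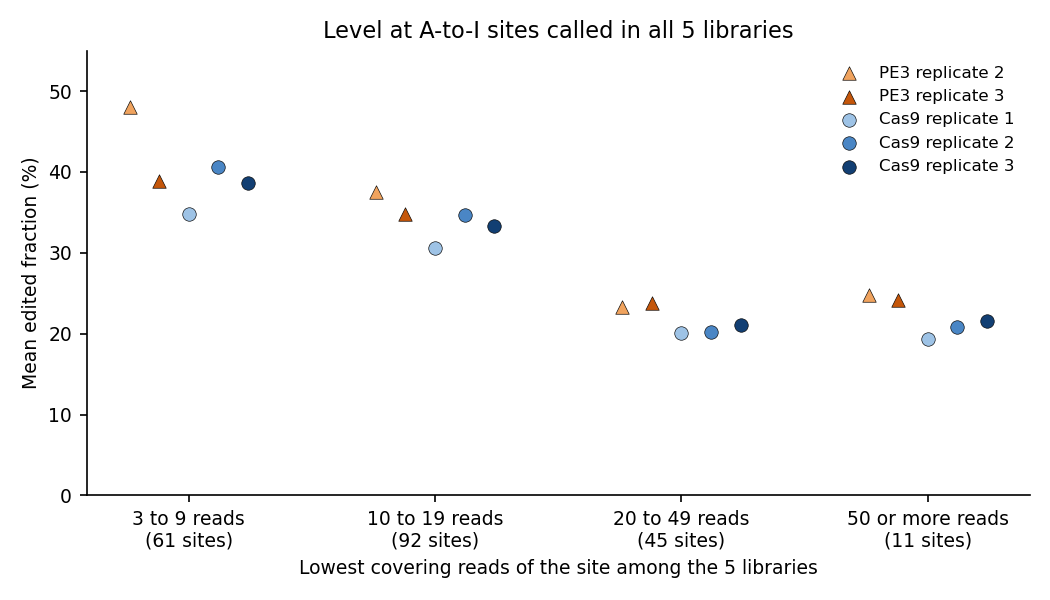
Mean edited fraction (percent) at A-to-I sites called in all 5 libraries, by the lowest number of covering reads among them, with 1 point per library. The PE3 points lie above all Cas9 points from 10 covering reads up and overlap them at 3 to 9 reads.

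The size of the difference depended on how sites were weighed. It was 7.57 points at the 18 sites with a mean level of at least 20% (46.4% and 46.2% in PE3, 39.8%, 36.3% and 40.0% in Cas9). It was 1.18 points at the 38 sites under 20%, where the groups overlapped (12.7% and 13.3% against 10.4%, 12.8% and 12.3%). By region, it was 4.06 points in 3' UTRs (38 sites), 2.16 in non-coding exons (9) and 1.61 outside genes (4). In coding sequence it was 1.60 points (3 sites) and in introns -2.04 points (2 sites). The median over the 56 sites differed by 0.90 points (exact permutation p = 0.6), and the share of edited reads pooled at the lowest coverage by 1.75 points. Without PE3 replicate 2, 224 sites were called in the other 4 libraries with at least 20 reads, and the difference there was 2.15 points (24.9% against 22.8%).

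The other 11 changes gave a comparison measured the same way. At 14 such sites called in all 5 libraries with at least 20 reads, PE3 gave 37.0% and 33.9% and Cas9 35.2%, 36% and 34.3%. The difference was 0.28 points, and the groups overlapped. The 14 include sites in ADI1 (100% in all 5 libraries) and MEF2C-AS1 (97.85% to 100%), which had almost no room to differ. At the 8 with a mean level of 20% to 80%, PE3 gave 31.93% and 27.6%. Cas9 gave 29.41%, 32.96% and 28.96% there, a difference of -0.67 points, and the groups again overlapped. Against other libraries, 41 A-to-I sites were called with at least 20 reads in all PE3, Cas9, EGFP and non-transfection libraries. The means there were 24.4% and 25.8% in PE3, 22.4%, 21.1% and 23.4% in Cas9, 25.6%, 24.5% and 24.7% in EGFP, and 21.4%, 21.3% and 20.7% in the non-transfection libraries. PE3 replicate 3 lay above the EGFP values and PE3 replicate 2 just below them, and Cas9 fell between EGFP and non-transfection or within the latter.

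Single sites were tested with limma on log2 odds of editing, weighted by reads. Of the 56 sites, 1 (1.79%) was higher in PE3 at a Benjamini-Hochberg adjusted p under 0.05 and 0 (0%) were lower. At an unadjusted p under 0.05 there were 11 higher and 1 lower. The mean was higher in PE3 at 38 sites and lower at 18. In 16 sites (28.6%) both PE3 libraries lay above every Cas9 library, and in 3 (5.36%) both lay below. The median log2 odds difference was 0.27, with a range of -1.54 to 1.70.

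The number of calls changed with the libraries and the fit: limma called 0 sites without PE3 replicate 2 and 0 without PE3 replicate 3, where the remaining PE3 library is assumed to vary like the others. It also called 0 in an unweighted fit and 0 over all 209 sites, and a quasi-binomial regression called 0. It called 3, 3 and 2 without Cas9 replicates 1, 2 and 3, 3 with a pseudocount of 1 read and 4 with a replicate block. A site of MT-RNR1, lower in PE3, was among the calls without Cas9 replicate 1, with the pseudocount of 1 read and with the block. All other calls in these settings were higher in PE3. The median log2 odds difference of the 56 sites was 0.36 without PE3 replicate 2 and 0.23 without PE3 replicate 3, in the same direction as with all libraries.

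The transcript sequences of 3 sites in 3' UTRs at which both PE3 libraries lay above every Cas9 library are shown with the edited A in capitals, each on the transcript strand of GENCODE release 29.
RPL7L1 42889293: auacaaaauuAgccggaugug
TIMM29 10930130: aacugaggcaAgagaaucgcu
DFFA 10459831: ucuggaggcuAaggcgagagu

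RPL7L1 (ENSG00000146223), a relative of ribosomal protein L7 encoded on chromosome 6, had more shared sites than any other gene, 11 in its 3' UTR. Their mean was 39.5% and 38.5% in PE3 and 29.6%, 32.3% and 29.6% in Cas9. The mean was higher in PE3 at 10 of the 11, against 142 of all 209 shared sites. The 11 sites share reads and 1 transcript and are not independent. The gene means here and below take all shared sites, and 6 of the 11 RPL7L1 sites had at least 20 reads in every library. At 42889293, on the plus strand, the levels were 44.4% and 44.7% against 32.1%, 24.3% and 32.4% (limma adjusted p = 0.0531). EGFP libraries had 29.23% to 38.62% there and non-transfection libraries 30.6% to 32.05%.

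**Figure D4:**
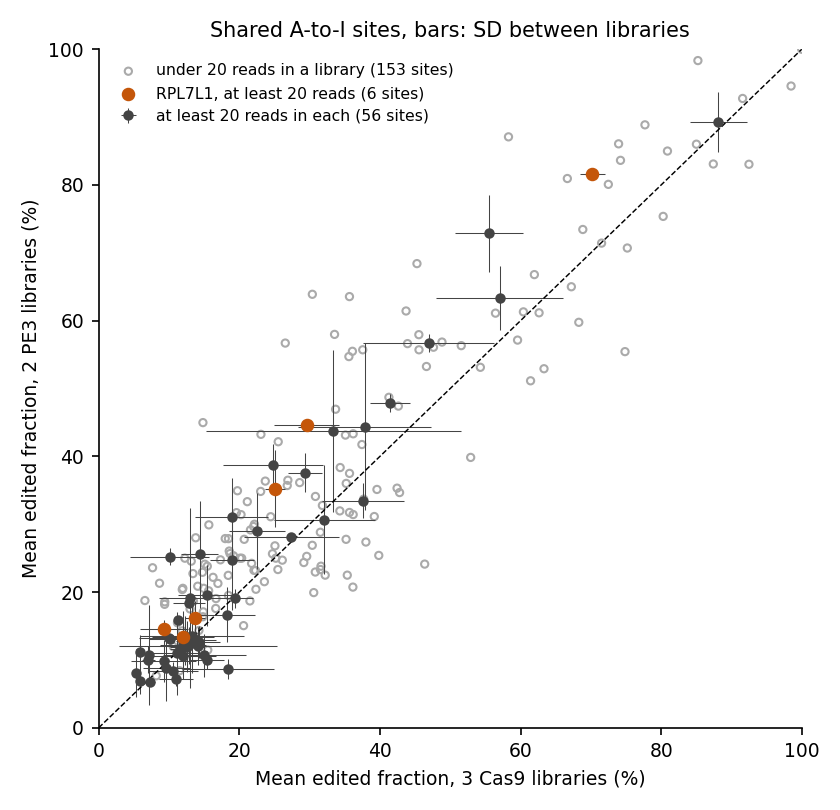
Mean edited fraction in PE3 (y axis, percent) against Cas9 (x axis, percent) at the A-to-I sites called in all 5 libraries with the SD between libraries as bars for sites with at least 20 covering reads in each, the RPL7L1 sites in orange, and sites under 20 reads as open grey points. Of the 56 sites with at least 20 reads, 38 lie above the line of equal level.

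SSR3, a subunit of the translocon-associated protein complex at the endoplasmic reticulum, had 8 shared sites on chromosome 3 in its 3' UTR. Their mean was 51.8% and 42.1% in PE3 and 38.9%, 31.8% and 41.2% in Cas9. DFFA, the inhibitor of the caspase-activated DNase, had 7 shared sites on chromosome 1 with a mean of 28.5% and 22.4% in PE3 and 14.5%, 18.4% and 18.9% in Cas9. At its site 10459831 PE3 gave 20% and 31.1% and Cas9 gave 11.6%, 14.7% and 16.9% (limma adjusted p = 0.115). EGFP libraries had 14.3% to 24.7% at that site and non-transfection libraries 10.8% to 26.8%. Of the shared sites 5 of 8 in SSR3 and 1 of 7 in DFFA had at least 20 reads in every library. The DFFA mean therefore rests mostly on low coverage, the range in which PE3 replicate 2 read highest over all shared sites. In both genes the PE3 libraries lay above all Cas9 libraries by the gene mean, and in DFFA also at this site.

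TIMM29, a subunit of the carrier translocase of the mitochondrial inner membrane, had the highest log2 odds difference of the 56 sites at position 10930130 of chromosome 19. Its levels were 26.1% and 24.3% in PE3 and 5.13%, 16.1% and 8.99% in Cas9, on 23 to 89 reads (log2 odds 1.70, SE 0.54, limma adjusted p = 0.115). The TIMM29 site was at 12.12% in the 2 EGFP libraries that called it and at 7.32% to 18.18% in non-transfection libraries. A site outside genes, at position 10152326 of chromosome 3, gave 9.35% and 12.9% against 5.50%, 6.37% and 5.78%. It was at 5.625% to 6.436% in 2 EGFP libraries and at 5.797% to 5.952% in 2 non-transfection libraries. EIF2AK2, the kinase PKR that senses double-stranded RNA, had 7 shared 3' UTR sites, with a mean of 26.4% and 37.3% in PE3 and 22.7%, 33.4% and 23.6% in Cas9. PGAM5, a mitochondrial phosphatase, had 7 with a mean of 30% and 32.5% against 25.5%, 26.2% and 26.4%. EIF2AK2 overlapped between the groups and PGAM5 did not, and in each 1 of the 7 sites had at least 20 reads in every library.

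Lower levels in PE3 were fewer. The site with the smallest p among them was in MT-RNR1, the mitochondrial 12S ribosomal RNA, at position 827, and it is shown with a NEAT1 site in the same direction.
MT-RNR1 827: gcagugauuaAccuuuagcaa
NEAT1 65441384: gacuggucucAaacuucugga
The MT-RNR1 levels were 9.69% and 7.57% in PE3 and 12.1%, 17.9% and 25.1% in Cas9, on 320 to 2217 reads (log2 odds -1.54, SE 0.39, limma adjusted p = 0.0771). The Cas9 libraries differed from each other by more than the PE3 libraries did. At this site EGFP libraries had 9.47% to 17.9%, non-transfection libraries 9.25% to 12.8% and hA3A-BE3 libraries 12.1% to 18.3%. Whether this A-to-G change in a mitochondrial transcript is editing of RNA was not tested. In NEAT1, the long non-coding RNA of paraspeckles, 65441384 on chromosome 11 gave 9.09% and 11% against 18.2%, 14.3% and 13.9%. NEAT1 was mixed: its mean over 6 shared sites was 24.5% and 23.6% in PE3 and 19.2%, 21.4% and 19.8% in Cas9. At a site outside genes, position 109063715 of chromosome 1, the levels were 6.45% and 8.05% against 12.8%, 8.33% and 11.9%. The other 2 sites named for the smallest p in this direction, in EIF2S3 and TAF2, overlapped between the groups.

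Sites that change a protein are the part of ADAR editing with a direct effect on coding. Those called in all 5 libraries were in NUP153 (a nuclear pore protein, I248V, position 17675015 of chromosome 6), SRP9 (a signal recognition particle protein that binds Alu RNA, I64M, position 225786912 of chromosome 1) and TDP2 (a phosphodiesterase that removes proteins from DNA ends, N59D, position 24666602 of chromosome 6).
NUP153: gaauucuucaAuccuuaaaac
SRP9: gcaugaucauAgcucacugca
TDP2: aagggcucugAacuccuacuu
NUP153 was at 35.5% and 39.6% in PE3 and 31.6%, 26.8% and 29.8% in Cas9, with both PE3 values above (limma adjusted p = 0.157). EGFP libraries had 30.06% to 39.85% at the NUP153 site and non-transfection libraries 12.82% to 39.01%. Both PE3 values thus lay within the EGFP range. SRP9 was at 28.6% and 27.8% against 20%, 33.3% and 28.9%, within the Cas9 range. TDP2 was at 31.6% and 38.7% against 41.3%, 42% and 35.4%. NEIL1, a DNA glycosylase gene known for ADAR recoding, had an intronic site at position 75353280 of chromosome 15 at 33.3% and 36% in PE3 and 35.3%, 44.4% and 48.6% in Cas9, on as few as 6 reads. Of these 4 sites, NUP153 was the one without overlap between PE3 and Cas9.

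Gene lists were described by their number of called sites. Of 21 ADAR recoding targets 6 had a site, with 7 and 21 sites in PE3 and 9, 9 and 20 in Cas9. Of 20 genes of double-stranded RNA sensing and the interferon response 3 had a site, with 12 and 24 against 26, 33 and 50, mostly A-to-I (73 of 74 distinct sites). MAVS, the adaptor that relays RNA sensing, had a 3' UTR site at position 3867578 of chromosome 20 with 28.6% and 15.8% in PE3 and 18.2%, 16.7% and 13.9% in Cas9. Of 21 genes of mismatch repair and flap processing, steps that act on prime edits, 4 had a site, with 7 and 10 against 6, 3 and 10. Of 22 genes of double-strand break repair and the p53 response 8 had a site, with 4 and 11 against 7, 3 and 7. For comparison, 1324 of 19907 protein-coding genes (6.65%) had a called site in any of the 5 libraries.

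Whether the lists separated the groups depended on the scale. As listed, the numbers separated the groups in the double-stranded RNA list alone of these 4, with PE3 lower. Per Gb that list overlapped, at 3.68 and 3.16 in PE3 against 3.53, 6.07 and 4.70 in Cas9. The other 3 lists were then higher in both PE3 libraries, as all called sites together were per Gb. The ADAR recoding targets gave 2.15 and 2.76 sites per Gb against 1.22, 1.65 and 1.88. Mismatch repair and flap processing gave 2.15 and 1.32 against 0.814, 0.551 and 0.940. Double-strand break repair and the p53 response gave 1.23 and 1.45 against 0.95, 0.551 and 0.658. As a share of all called sites, the double-stranded RNA list was lower in PE3 (1.09% and 1.01% against 1.55%, 2.13% and 1.52%). The ADAR list (0.635% and 0.881% against 0.536%, 0.582% and 0.606%) and the mismatch repair list (0.635% and 0.419% against 0.357%, 0.194% and 0.303%) were higher, and the break repair list overlapped (0.363% and 0.461% against 0.417%, 0.194% and 0.212%). Outside the double-stranded RNA list these shares rest on 3 to 21 sites a library, and no test was made.

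Sites called in every library of one group and in none of the other were few. For A-to-I there were 28 in both PE3 libraries and no Cas9 library, in 26 genes, and 22 of them were also called in another group. They included an intronic site of HNRNPC, a splicing-related RNA-binding protein, at 69.2% and 50%, and a 3' UTR site of GPATCH2L at 62.5% and 50%, both on 20 reads or fewer. In the other direction 76 A-to-I sites, in 41 genes, were called in all 3 Cas9 libraries and no PE3 library, and all 76 were also called in another group. Examples were an intronic site of ENSA (82.3%, 84.6% and 96.0% in Cas9) and a 3' UTR site of DCAF16 (52.2%, 50% and 61.8%). The numbers cannot be set against each other, since 2 libraries were asked in PE3 and 3 in Cas9 and PE3 replicate 2 was shallow.

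For the other 11 changes, 2 sites were in both PE3 libraries and no Cas9 library. They were the RNF2 site and an intronic A-to-C site of SNX5, a sorting nexin, at 66.7% of 6 reads and 26.7% of 15 reads. The SNX5 site was also called in 5 of the 9 other libraries and the RNF2 site in 0. In Cas9 there were 7, each also called in another group, among them C-to-U sites in ZBTB40 (38.5%, 38.1% and 30.2%) and ZNF584 (P142S, 20.8%, 28.6% and 30.8%) and a T-to-C site in LONRF2 (L426P, 28.1%, 20.4% and 23.9%). G3BP1, the stress granule protein, had a C-to-U site called in all 5 libraries at 36% and 30.2% in PE3 and 32.2%, 28.2% and 34.3% in Cas9, with the groups overlapping.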

How the data were processed

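Total RNA of 293FT cells was measured. Treatment labels gave the groups and titles gave the replicate numbers. PE3 replicate 1 was not analysed here. The submitters' processing notes name BWA 0.7.17, GRCh38 and hg38. The site caller is not given in the sources used. The authors deposited 1 list of sites per library with counts of covering and mutated reads, and the edited fraction per site as deposited. A deposited signal column gives read depth per Gb, from which mapped bases were computed as depth divided by that signal, an inference from the values. Strands were recovered from the base columns, and 17541 of 17541 exonic sites had the same base as the transcripts of GENCODE release 29. Of all distinct sites, 96.3% lay on the strand of a gene. A-to-G is written A-to-I and C-to-T is written C-to-U. Coding sequence took precedence over 3' UTR, then 5' UTR, non-coding exon and intron, and repeats were not annotated.

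Site numbers per Gb were compared on a log2 scale and levels as percent, by two-sided exact permutation tests over libraries with Benjamini-Hochberg adjustment over the 12 changes or 12 region tests. Single sites were tested with limma 3.58.1 (R 4.3.3) on log2 odds with 0.5 reads added, weighted by their precision, at a minimum of 20 covering reads. Python 3.11.15, NumPy 2.4.6, pandas 2.3.3 and SciPy 1.17.1 did the rest. The limma step was tested on simulated data. The members and lists were chosen with earlier results of these data known. Sites named are the 5 with the smallest p in each direction, recoding and amino acid changes called in at least 3 or all 5 libraries, sites called in 1 group alone and other changes called in all 5 libraries by mean edited fraction, the 5 genes with the most shared sites, genes of the lists, and RNF2, some given by count. Some sites that this rule names, the site called by limma among them, are not reported here. RPL7L1 42889293, the NEAT1 gene mean and the T-to-C genes were chosen after their values were seen. Alternatives changed the scaling, the minimum of covering reads, mutated reads and edited fraction, the weights, the pseudocount, the model and the libraries, and the thinning of reads at shared sites was added after seeing the data.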

Additional observations from a re-analysis of the deposited data

How the results depend on the processing

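Log2 differences below are PE3 minus Cas9 in sites per Gb unless said. In numbers as listed they were -0.34 for all changes, -0.36 for A-to-I, -0.11 for C-to-U, -0.32 for T-to-C, -0.18 for G-to-A, -0.32 for C-to-A, -0.36 for C-to-G, -0.41 for G-to-C, -0.43 for T-to-A, -0.33 for T-to-G, -0.26 for the 11 other changes and -0.24 for the 8 transversions. At sites with at least 20 covering reads they were -0.46 for all changes, -0.72 for A-to-I, -0.011 for C-to-U, -0.41 for G-to-C, 0.16 for G-to-T and -0.22 for T-to-A. The A-to-I share in non-coding exons then differed by 2.97 points and in introns by -2.88 points, and 4 A-to-I and 0 other sites were in both PE3 libraries alone, against 39 A-to-I sites in all Cas9 libraries alone. At 50 reads they were -0.45, -0.74 and -0.042 for all changes, A-to-I and C-to-U, -0.058 for T-to-C, -0.55 for C-to-A, -0.87 for C-to-G, -0.87 for G-to-C, -0.020 for the 11 others and -0.28 for transversions. With at least 5 mutated reads they were -0.021, -0.049 and -0.15 for all changes, A-to-I and C-to-U, -0.32 for T-to-C, -0.073 for T-to-A, -0.47 for T-to-G and -0.0017 for the 11 others. At an edited fraction of at least 10% T-to-G gave -0.26. At matched mapped bases C-to-A gave -0.046, G-to-C -0.18, T-to-A -0.087 and T-to-G -0.17. Leaving out 1 library at a time, C-to-U ranged from -0.11 to 1.08, T-to-C from -0.21 to 0.76, G-to-A from -0.21 to 1.06, C-to-G from -0.49 to 0.96, G-to-C from -0.82 to 1.18, G-to-T from -0.51 to 0.39, T-to-A from -0.88 to 1.21, the 11 others from -0.24 to 0.91 and transversions from -0.24 to 0.95. The share of A-to-I then ranged from -6.95 to 3.97 points, of C-to-U from -0.53 to 1.52, of transversions from -1.20 to 2.03, of coding A-to-I from -0.069 to 0.86, of A-to-I in non-coding exons from -0.32 to 0.22, and of other changes from -13.0 to 2.89 in 3' UTRs and from -5.69 to 4.69 in introns. Sites in PE3 alone ranged from 35 to 813 (A-to-I) and 3 to 178 (other), in Cas9 alone from 90 to 252 and 11 to 22, since fewer libraries are asked. Limma called 0 to 3 sites without 1 library, 0 with no minimum of reads, 0 without weights, 0 by quasi-binomial regression and 3 with a pseudocount of 1 read, against 1. At the EIF2S3 site the log2 odds difference ranged from -1.12 to 0.19 without 1 library, and turned positive without PE3 replicate 3. The mean edited fraction at shared sites kept its direction under all 18 alternatives, from 0.90 to 7.57 points, and from 2.15 to 3.59 without 1 library. These alternatives did not split the sites by region. By region the sign turned in introns at 20 reads (-2.04 points, 2 sites). With no minimum of reads it turned in coding sequence (-0.74, 5 sites) and at the 5' UTR site (-3.94, 1 site). A replicate block gave 2.94 points for the mean edited fraction at shared sites, -0.073 for T-to-C and 4 limma calls, adding 2 RPL7L1 sites and MT-RNR1. The deviations of same-numbered libraries correlated at -0.055 (replicates 2) and -0.17 (replicates 3). With 2 PE3 libraries the deviations of one mirror those of the other, so these values can neither show nor exclude a pairing. The main tests treated the libraries as unpaired. The cause of these changes was not tested. PE3 replicate 2 had the fewest mapped bases (3.26 Gb), and a level at 20 reads moves in steps of several percentage points. The part of either in these changes was not tested.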
